A study of Danio rerio with 6 samples.

Results

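Genes of DNA replication, mitosis and cell cycle control were followed in whole larvae of the zebrafish, Danio rerio, 5 dpf (days post fertilization), with or without a homozygous knockout of hspd1, the gene for the mitochondrial chaperonin HSP60. The members were 43 named genes, and they were found by comparing their symbols, without regard to case, with the symbols of the 25859 genes in the count files. Of the 43 symbols 41 matched, and mcm6 and rrm2 each matched 2 gene IDs, so that 43 gene rows were followed. The symbols prc1b and birc5a matched no row. By their known roles 16 of the rows belong to replication and 25 to mitosis, and ccna2 and mki67 were placed in both.

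A dividing cell copies its DNA in S phase and separates the copies in mitosis, and different genes serve these steps. Before S phase the MCM helicase is loaded onto origins, and during it PCNA holds the polymerases on the DNA while ribonucleotide reductase, thymidine kinase and thymidylate synthase supply nucleotides. Transcripts of the mitotic genes accumulate later, in G2, under the transcription factors FOXM1 and B-MYB, whereas replication genes are driven earlier by E2F factors. In larvae of this age most cells have left the cycle, and dividing cells are known from the margin of the retina, the ventricular zones of the brain, the gut and blood-forming sites.

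The controls were hspd1+/+ and the knockouts hspd1-/- larvae, both from in-crosses of heterozygous carriers, so that control and knockout larvae came from the same kind of cross. Each of the 6 poly(A)-selected libraries was made from 5 larval bodies, without the tip of the tail fin, pooled after genotyping, with 3 pools per genotype. Whole bodies were measured, and in such data fewer dividing cells and less RNA per dividing cell cannot be told apart. Total counts ran from 18517874 to 20331675 per pool, and tested members had 40 to 4330 reads in a pool. CPM, the reads of a gene relative to the size of its library, carry the TMM scaling of edgeR. Log2 fold changes compare 3 knockout pools with 3 control pools, and a negative value means less in the knockout.

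hspd1 itself stood at 124, 133 and 132 CPM in the controls and at 73.4, 67.9 and 82.3 CPM in the knockouts, each time in the order of pools 1, 2 and 3, which is kept throughout. Every knockout pool was below every control pool, which fits the genotype labels (log2 fold change −0.79, edgeR adjusted p = 0.00162). Its transcript was still present in the knockout pools.

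The mitotic genes plk1, espl1 and bub1 fell in the knockout, and the other members had negative differences that did not pass the test. Of 43 members 42 had enough reads to be tested. All 42 had a negative log2 fold change, from −0.83 for plk1 to −0.03 for ccna2, against 50.9% of all genes tested. Members varied together, and in 35 of 42 the controls ran from low to high as pools 1, 3 and 2, against 20.5% of all genes. Their signs therefore do not count as independent observations. The median was −0.42 over members, against −0.01 over all genes tested. Of the 42, 3 passed the threshold as lower (an adjusted p under 0.05 over all genes by the quasi-likelihood test of edgeR) and 0 as higher. Of all genes tested 4.01% passed, 2.54% as lower and 1.47% as higher. At an unadjusted p under 0.05, 24 members were lower and 0 higher, against 8.81% and 6.79% of all genes. With DESeq2 12 members were lower, against 3.28% of all genes, and with limma-voom 2, against 2.40%. With either tool 0 members were higher, against 1.87% and 1.37% of all genes. The untested row was the mcm6 gene ENSDARG00000033231, which had 4 reads in control pool 1, 1 read in knockout pool 2 and 0 in the other pools.

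The number of calls and the size of the differences depended on single pools. When control pool 1 was left out, 17 members were lower, against 2.91% of all genes. When control pool 2 or control pool 3 was left out, 1 member was lower, against 1.66% and 1.65% of all genes. The number was also 1 when knockout pool 1 or knockout pool 3 was left out, against 2.24% and 1.89%, and 3 when knockout pool 2 was left out, against 1.81%. The median over members was −0.58 in the fit that lacked control pool 1, and −0.25 in the fit that lacked control pool 2. In every one of these fits plk1 passed, and without control pool 2 or control pool 3 no other member did. Control pool 1 was the lowest control in 37 of 42 members. The calls gained by dropping it, given by gene below, show dependence on that pool and add no support for a fall.

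**Figure D1:**
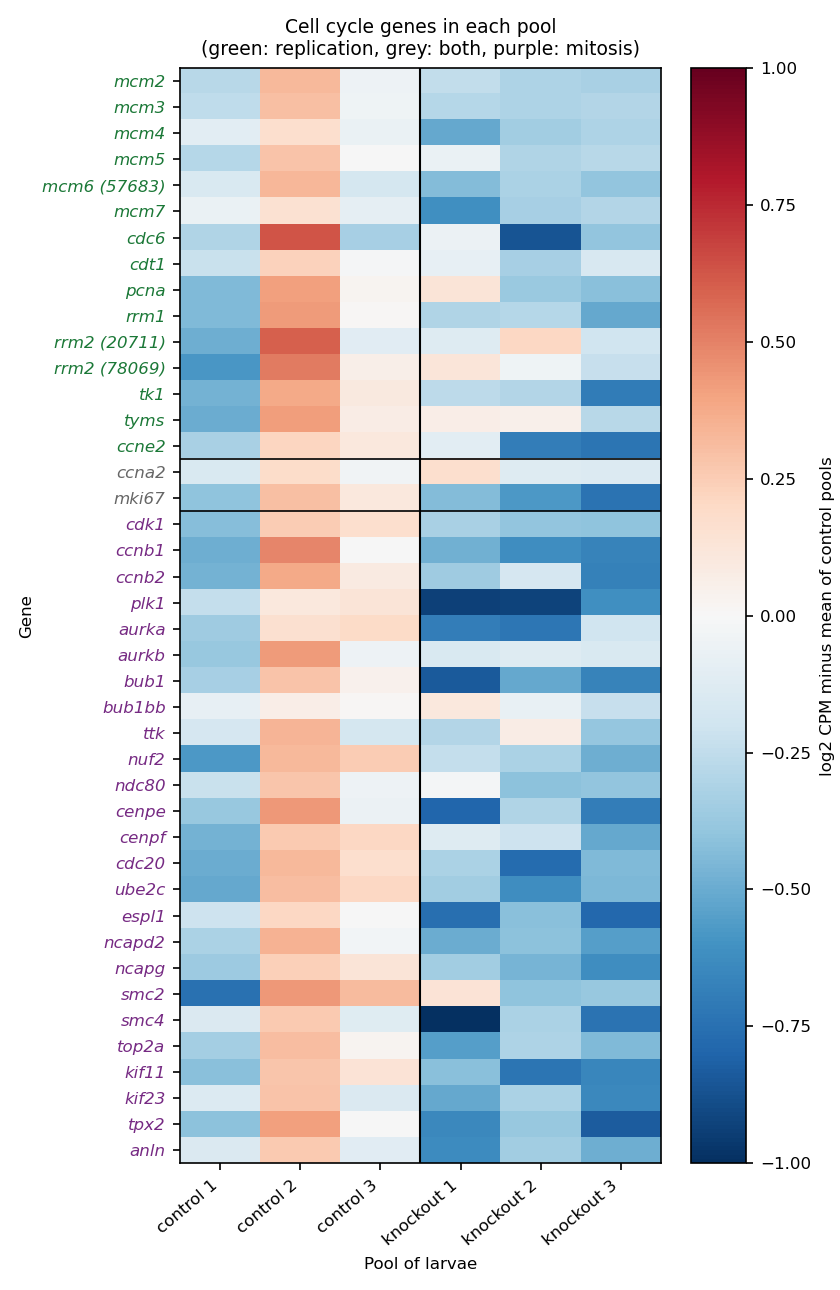
Level of each tested member in each pool, as log2 CPM minus the mean of the 3 control pools, with rows grouped into replication genes (green), ccna2 and mki67 (grey) and mitosis genes (purple), and the 5 last digits of the gene ID where a symbol has more than 1 gene. Control pool 2 is highest of the 6 pools in 39 of 42 rows, against 17.1% of all genes tested. In 29 of 42 rows control pool 1 does not exceed every knockout pool, a count with no share over all genes beside it.

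Among the replication genes, 4 of the 8 tested genes that license origins had no overlap between groups, with the knockouts lower, and 0 of the other 7, against 10.6% of all genes tested. The helicase subunit gene mcm4 stood at 70.2, 84.7 and 72.1 CPM in the controls and at 52.8, 59.3 and 60.7 CPM in the knockouts. The helicase subunit gene mcm7 stood at 45.9, 53.4 and 45.3 CPM in the controls and at 31.4, 38.2 and 39.1 CPM in the knockouts. In both, every knockout pool lay below every control pool, yet neither passed the test over all genes. The log2 differences were −0.39 (SE 0.11, 95% interval −0.64 to −0.14, edgeR adjusted p = 0.0959) for mcm4 and −0.41 (SE 0.12, interval −0.68 to −0.14, adjusted p = 0.102) for mcm7. With DESeq2 mcm4 passed (adjusted p = 0.0482).

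The groups were also apart for mcm3, with a log2 difference of −0.31 (edgeR adjusted p = 0.302), and for the mcm6 gene ENSDARG00000057683 (−0.40, adjusted p = 0.186). They overlapped for mcm2 (−0.32) and mcm5 (−0.23), the other helicase subunits. They overlapped too for the loading factor genes cdc6 and cdt1, at −0.48 and −0.20. Both groups were widely spread for cdc6, at 10.1, 19.4 and 9.90 CPM in the controls and 11.98, 6.79 and 9.46 CPM in the knockouts. Over the 8 tested licensing genes the median was −0.35, and −0.13 without control pool 2.

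Among the genes of nucleotide supply none had separate groups. The large subunit of ribonucleotide reductase, rrm1, had a log2 difference of −0.41 (95% interval −0.82 to 0.00, edgeR adjusted p = 0.327). The small subunit genes carrying the symbol rrm2 were at −0.10 for ENSDARG00000020711 and −0.11 for ENSDARG00000078069 (adjusted p = 0.878 and 0.860). As similar copies they may share reads, so the split between them is uncertain. The thymidine kinase gene tk1 and the thymidylate synthase gene tyms were at −0.45 and −0.09 (adjusted p = 0.315 and 0.865). For both rrm2 genes and tyms, control pool 1 was the lowest pool of all. Without control pool 2 the sign of both rrm2 genes and of tyms turned, to 0.27, 0.19 and 0.15. When control pool 1 was dropped rrm1 and tk1 passed (edgeR adjusted p = 0.0479 and 0.0487).

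The gene of the replication clamp, pcna, which is widely used to mark dividing cells, stood at 128, 232 and 178 CPM in the controls and at 191, 135 and 130 CPM in the knockouts. Knockout pool 1 exceeded control pools 1 and 3, and control pool 1 was the lowest of the 6. The log2 difference of −0.24 had a 95% interval from −0.70 to 0.23 (edgeR adjusted p = 0.644) and was near 0 without control pool 2. The gene of cyclin E2, ccne2, which acts at entry into S phase, had a log2 difference of −0.50 (interval −0.94 to −0.07, adjusted p = 0.241).

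The pair placed in both phases differed from each other. mki67, which codes for the Ki-67 protein found in cycling cells, stood at 145, 236 and 207 CPM in the controls and at 142, 129 and 115 CPM in the knockouts. All knockout pools were below all control pools, although knockout pool 1 and control pool 1 were close. The log2 difference was −0.61 (SE 0.17, 95% interval −0.98 to −0.24) and did not pass with edgeR (adjusted p = 0.0822), but passed with DESeq2 (0.00851) and without control pool 1 (0.00732). The gene of cyclin A2, ccna2, which pairs with CDK2 in S phase and CDK1 in G2, stood at 51.8, 65.4 and 56.3 CPM in the controls and at 64.8, 52.6 and 52.4 CPM in the knockouts. Its log2 difference was −0.03 (interval −0.31 to 0.25, adjusted p = 0.933).

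**Figure D2:**
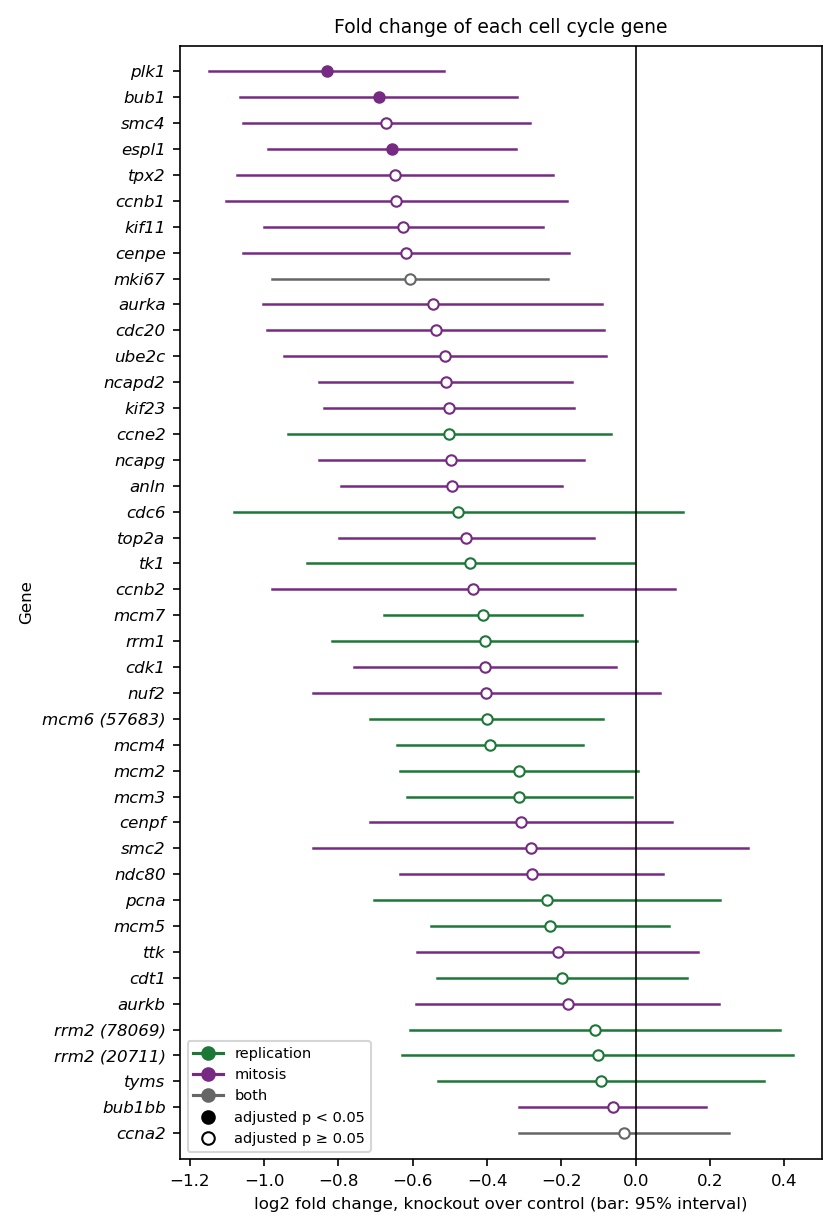
Log2 fold change of each tested member (knockout over control, x axis) with its 95% interval, in order of size, colored by phase, with filled points for genes that passed. The filled points are plk1, bub1 and espl1, and the replication genes lie mostly in the lower part, nearer to 0.

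Among the mitosis genes, the kinase gene plk1 had the largest difference. Polo-like kinase 1 drives entry into mitosis, centrosome maturation and the exit from mitosis. plk1 stood at 16.1, 20.5 and 20.9 CPM in the controls and at 9.90, 9.98 and 12.4 CPM in the knockouts. The highest knockout pool was below the lowest control pool. It fell from 19.2 ± 2.66 CPM to 10.8 ± 1.42 CPM (mean ± SD, n = 3), a log2 fold change of −0.83 (SE 0.14, 95% interval −1.15 to −0.51, edgeR adjusted p = 0.00750). It passed in all 13 alternative fits, with log2 fold changes from −0.93 to −0.76 and adjusted p from 5.83e-05 to 0.0390.

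The other mitotic kinases did not pass. aurka, whose kinase acts at the spindle poles, had a log2 difference of −0.55 (edgeR adjusted p = 0.218). aurkb, the kinase of the chromosomal passenger complex, stood at 10.1, 10.2 and 10.0 CPM in the knockouts, within the control values of 8.58, 15.1 and 10.8 CPM. Its log2 difference was −0.18 (adjusted p = 0.689) and turned to 0.07 without control pool 2. CDK1 with cyclin B starts mitosis, and cdk1, ccnb1 and ccnb2 were at −0.41, −0.64 and −0.44 (adjusted p = 0.242, 0.141 and 0.442). In ccnb1, control pool 1 with 12.9 CPM lay among the knockout pools, which had 13.0, 11.7 and 11.3 CPM, while control pools 2 and 3 had 25.4 and 18.1 CPM. Without control pool 1 both cdk1 and ccnb1 passed (edgeR adjusted p = 0.0132 for each), and ccnb1 also passed with DESeq2 (0.0470). Without control pool 2 cdk1 and ccnb1 were at −0.27 and −0.36 and did not pass (edgeR adjusted p = 0.577 and 0.440).

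Genes of the spindle checkpoint and the kinetochore, which hold back anaphase until chromosomes are attached, were unequal. bub1, a checkpoint kinase of the kinetochore, stood at 11.5, 17.7 and 14.9 CPM in the controls and at 8.04, 10.1 and 9.09 CPM in the knockouts, with no overlap. Its log2 fold change was −0.69 (SE 0.17, 95% interval −1.06 to −0.32, edgeR adjusted p = 0.0483), just inside the threshold. It passed in 6 of 13 alternative fits, and did not pass with upper-quartile scaling (0.0562), with limma-voom (0.0640), or without any one pool other than control pool 1 (0.0758 to 0.177).

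The related gene bub1bb, whose product BUBR1 is part of the complex that inhibits anaphase, stood at 29.0, 32.2 and 30.9 CPM in the controls and at 33.0, 29.1 and 26.1 CPM in the knockouts. Its log2 difference was −0.06 (95% interval −0.31 to 0.19, edgeR adjusted p = 0.841). The checkpoint kinase gene ttk was at −0.21. The genes of the NDC80 complex, which binds microtubules, were at −0.28 for ndc80 and −0.40 for nuf2. The kinetochore motor gene cenpe and the kinetochore protein gene cenpf were at −0.62 and −0.31, and none of these 5 passed (adjusted p from 0.138 to 0.611). cenpe passed with DESeq2 (0.0383), and without control pool 1 both cenpe (0.0320) and nuf2 (0.0277) passed.

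Of the genes that control anaphase, espl1 fell. It codes for separase, the protease that cuts cohesin to release sister chromatids. espl1 stood at 13.2, 17.6 and 15.2 CPM in the controls and at 8.97, 11.4 and 8.78 CPM in the knockouts, with no overlap between groups. The log2 fold change was −0.66 (SE 0.15, 95% interval −0.99 to −0.32, edgeR adjusted p = 0.0358). It passed in 9 of 13 alternative fits, but did not in the 4 fits that lacked control pool 2 or 3 or knockout pool 1 or 3 (0.106 to 0.152). cdc20, the activator of the anaphase-promoting complex, and ube2c, its ubiquitin-conjugating enzyme, had log2 differences of −0.54 and −0.51 (adjusted p = 0.224 and 0.225). In both, control pool 1 lay within the knockout values, and both passed without it (0.0234 and 0.0121).

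Condensin folds chromosomes for mitosis, and topoisomerase II untangles them. smc4, a core subunit of condensin, stood at 32.5, 43.0 and 33.0 CPM in the controls and at 17.9, 28.8 and 21.5 CPM in the knockouts, with no overlap. Its log2 difference of −0.67 (SE 0.17, 95% interval −1.06 to −0.28) did not pass with edgeR (adjusted p = 0.0667) but passed with DESeq2 (0.00702) and without knockout pool 2 (0.0155). Its partner smc2 was spread widely, at 21.7, 49.6 and 45.5 CPM in the controls and 40.2, 27.6 and 28.1 CPM in the knockouts. Its log2 difference was −0.28 (adjusted p = 0.665). The condensin I subunits ncapd2 and ncapg were at −0.51 and −0.50 (adjusted p = 0.111 and 0.145), and top2a was at −0.46 (0.166). Without control pool 1 these 3 passed (0.0201, 0.0227 and 0.0223), and ncapd2 also passed with DESeq2 (0.0496).

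Of the 4 genes of the spindle and of cytokinesis, 3 had no overlap between groups, with the knockouts lower, against 10.6% of all genes tested. With edgeR 0 of them passed, while all 4 were lower at an unadjusted p under 0.05, against 8.81% of all genes. With DESeq2 kif11, anln and tpx2 passed, and without control pool 1 kif11 and tpx2. kif11, the motor that pushes spindle poles apart, stood at 26.9, 43.5 and 39.6 CPM in the controls and at 26.9, 21.6 and 22.8 CPM in the knockouts. Control pool 1 and knockout pool 1 were almost equal in it. The groups did not overlap for kif23, the motor of the central spindle, or for anln, the scaffold of the contractile ring. anln stood at 23.6, 31.5 and 24.2 CPM in the controls and at 17.0, 20.6 and 18.7 CPM in the knockouts. Log2 differences were −0.63 for kif11, −0.50 for kif23, −0.50 for anln and −0.65 for tpx2, an activator of Aurora A (edgeR adjusted p = 0.0775, 0.115, 0.0781 and 0.107). For the unmatched symbols prc1b and birc5a, 3 other rows carried the related symbols prc1 and birc5. They were the prc1 genes ENSDARG00000005993 and ENSDARG00000100918, at −0.22 and −0.59 (adjusted p = 0.681 and 0.164), and the birc5 gene ENSDARG00000075621, at −0.30 (0.449).

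**Figure D3:**
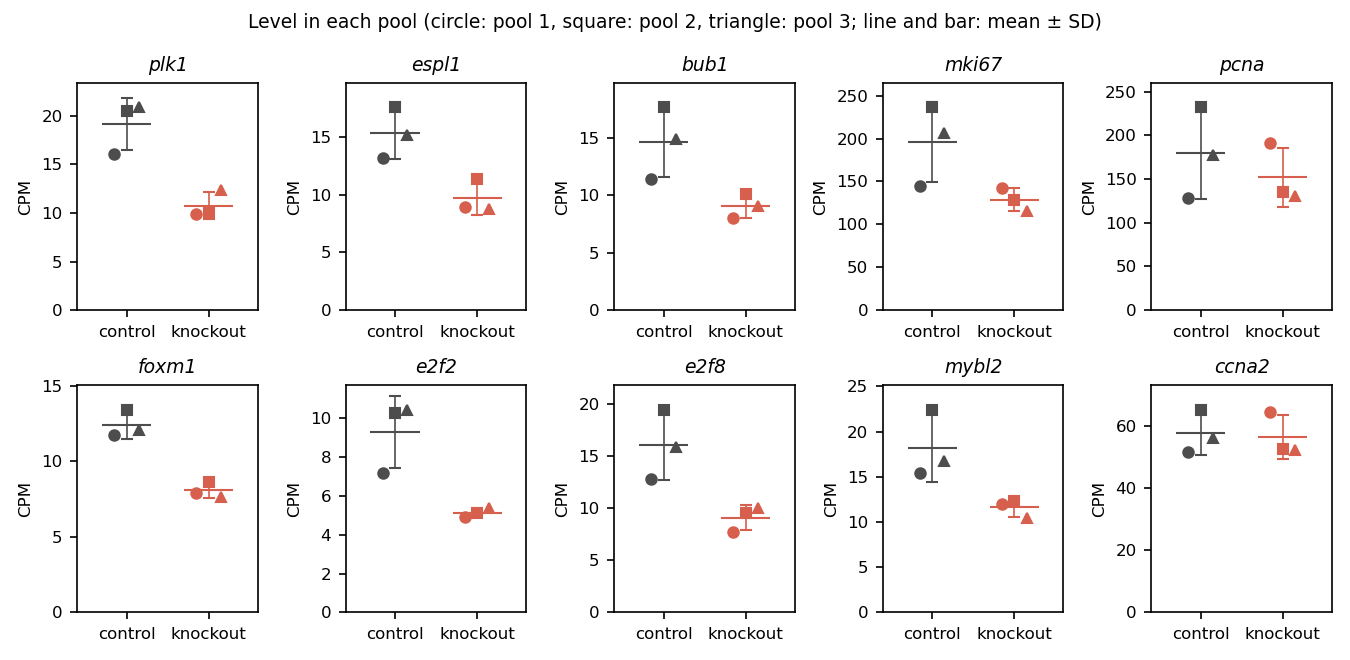
CPM in each pool (y axis, from 0) for the members plk1, espl1, bub1, mki67, pcna and ccna2 and for the transcription factor genes foxm1, e2f2, e2f8 and mybl2, with group means and SD. In plk1, espl1, bub1, mki67 and the 4 transcription factor genes the knockout pools lie below all control pools, whereas in pcna and ccna2 the groups overlap.

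Set side by side, all tested replication and mitosis genes had negative differences, and those of mitosis genes were larger in the median. The median log2 fold change was −0.32 over 15 tested replication genes and −0.50 over 25 mitosis genes. This order did not hold for every subset. Among replication genes the median was −0.35 for licensing and −0.11 for nucleotide supply, where rrm2 counts as 2 genes. Among mitosis genes it was −0.31 for the 7 of the checkpoint and kinetochore, and −0.56 to −0.44 for the other subsets. With edgeR 0 replication genes and 3 mitosis genes passed, all as lower, against 2.54% of all genes. At an unadjusted p under 0.05, 6 replication and 17 mitosis genes were lower, against 8.81% of all genes. With DESeq2 1 replication and 10 mitosis genes passed, with limma-voom 0 and 2, and without control pool 1, 2 and 14. The shares lower over all genes in these 3 fits were 3.28%, 2.40% and 2.91%. All knockout pools were below all control pools in 4 of 15 replication and 8 of 25 mitosis genes, and in 13 of 42 members, against 10.6% of all genes tested. The difference between the 2 sets was not tested, because members were chosen with results known.

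In each pool, the mean level of the replication genes (log2 CPM from the control mean) was −0.33, 0.36 and −0.03 in the controls and −0.18, −0.30 and −0.37 in the knockouts. Knockout pools 1 and 2 were thus above control pool 1. The mean level of the mitosis genes was −0.35, 0.30 and 0.05 in the controls and −0.44, −0.41 and −0.52 in the knockouts, so that all knockout pools were somewhat below control pool 1. The level of mitosis genes minus that of replication genes, taken within a pool, was −0.03, −0.06 and 0.09 in the controls and −0.26, −0.11 and −0.16 in the knockouts. On this measure, the groups did not overlap. It is a description of the members, with no test, and taking levels from the control mean makes the control values average 0.

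**Figure D4:**
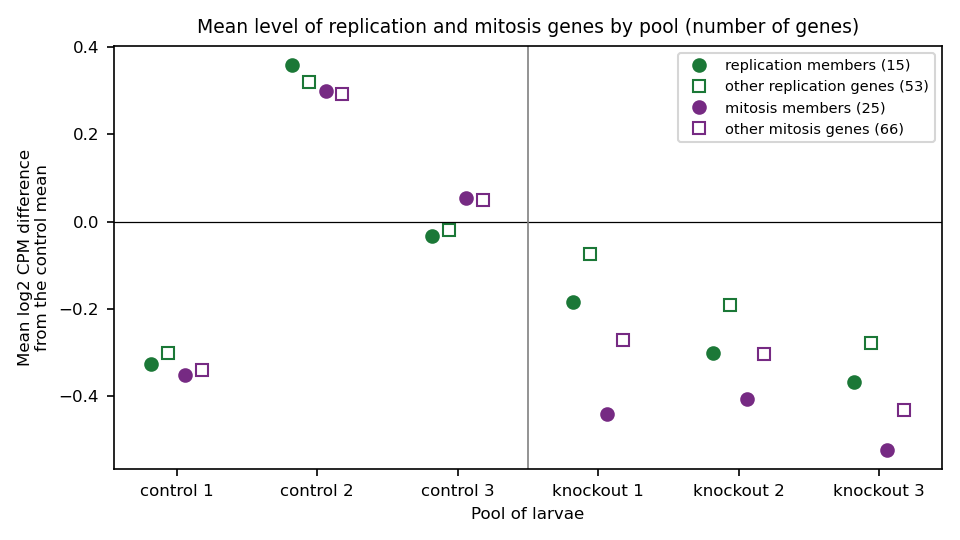
Mean log2 CPM, as a difference from the mean of the control pools, of 15 replication members, 25 mitosis members and the other replication (53) and mitosis (66) genes in each pool. In the control pools the 4 points of a pool lie close together, and in each knockout pool the purple points of mitosis genes lie below the green points of the matching replication genes.

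The control pools were unlike each other in these genes, while the knockout pools were alike. Control pool 2 was the highest of all 6 pools in 39 of 42 members, against 17.1% of all genes tested. The exceptions were plk1 and aurka, highest in control pool 3, and bub1bb, highest in knockout pool 1. Control pool 1 was the lowest control in 37 of 42 members, against 38.5% of all genes. The highest control was a median of 1.58 times the lowest over members, while the highest knockout was 1.26 times the lowest. The SD between control pools on the log2 scale exceeded that between knockout pools in 36 of 42 members, against 46.2% of all genes.

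Overlap between the groups involved control pool 1 in every member where it occurred. In 29 of 42 members control pool 1 did not exceed every knockout pool, in 8 control pool 3 did not, and in 1, bub1bb, control pool 2 did not. The shares of all genes for these counts were not taken, so control pool 1 cannot be called unusual by its count. Without control pool 1, 34 of 42 members had all knockout pools below both remaining controls, against 17.4% of all genes. Control pool 1 was the lowest control in 37 of 42 members but in 38.5% of all genes. Leaving it out therefore favors the members in this count, which cannot be read as support for a fall. Per the labels the pools came from 3 mating sets, but they do not say that the pool number names the set. Of the sequencing measures, control pool 1 had the most reads of the 6 libraries, and the share of reads in the 10 most abundant genes was 10.2%, 9.15% and 9.58% in the controls and 10.3%, 9.07% and 9.65% in the knockouts. The part of these in the result was not tested.

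**Figure D5:**
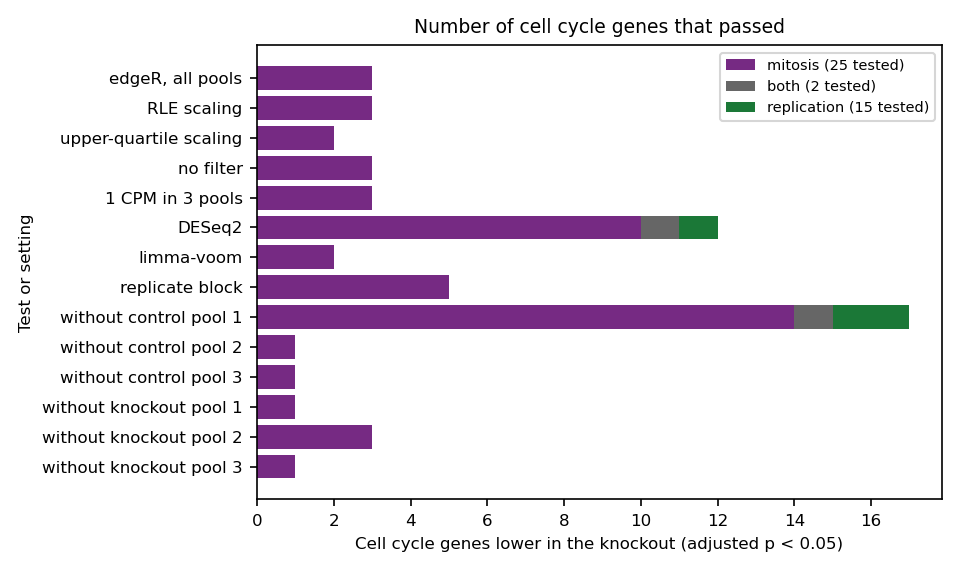
Number of members lower in the knockout at an adjusted p under 0.05 (x axis) in the test reported and in each alternative, split into mitosis, both and replication genes. The number is 1 to 5 in all but DESeq2 (12) and the fit without control pool 1 (17), and mitosis genes make up most of it throughout.

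Other genes of the same pathways were read from lists. Of the genes listed, 2 of 54 for replication and 2 of 67 for mitosis matched no symbol. The same held for 2 of 35 for G1 control and transcription and 4 of 16 inhibitors. Of all genes tested, 50.9% had a negative log2 fold change, and 2.54% passed as lower and 1.47% as higher with edgeR. At an unadjusted p under 0.05, 8.81% were lower and 6.79% higher. With DESeq2 3.28% passed as lower and 1.87% as higher, and with limma-voom 2.40% and 1.37%. Of 53 other replication genes, such as polymerase, origin and clamp loader genes, 47 had a negative log2 fold change, and with edgeR 0 passed in either direction (7 lower and 0 higher at an unadjusted p under 0.05, 0 with DESeq2 and 0 with limma-voom). Their median was −0.19, and it was −0.0027 without control pool 2. With control pool 1 dropped the median was −0.33. In that fit 1 of them, slbp, which codes for the histone mRNA binding protein, passed as lower, against 2.91% of all genes. All knockout pools were below all control pools in 5 of the 53, against 10.6% of all genes. Of 66 other mitosis genes 63 were negative, with a median of −0.37, and 3 passed as lower and 0 as higher. At an unadjusted p under 0.05, 24 of them were lower and 0 higher, and 5 and 3 passed as lower with DESeq2 and limma-voom, with 0 higher. The number lower was 15 with control pool 1 dropped and 1 with either of the other controls dropped. Of all genes 2.91% were lower without control pool 1, and 1.66% and 1.65% without control pools 2 and 3. The median of these mitosis genes was −0.19 in the fit that lacked control pool 2. All knockout pools were below all control pools in 16 of the 66, against 10.6% of all genes. Within pools, the level of these mitosis genes minus that of these replication genes was −0.04, −0.03 and 0.07 in the controls. It was −0.20, −0.11 and −0.15 in the knockouts, without overlap between groups. The pools are the same as for the members, and the lists were chosen with results known. This is therefore no independent repeat of the member result, and it was not tested.

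The 3 other mitosis genes that fell were hmmr, cdc25b and ska3. hmmr, whose product organizes spindle microtubules, stood at 8.58, 12.3 and 13.2 CPM in the controls and at 5.65, 6.58 and 5.52 CPM in the knockouts, a log2 fold change of −0.94 (SE 0.18, edgeR adjusted p = 0.0124). cdc25b, the phosphatase that activates CDK1, stood at 24.6, 29.1 and 23.1 CPM in the controls and at 12.7, 17.6 and 16.6 CPM in the knockouts, a log2 fold change of −0.71 (SE 0.14, adjusted p = 0.0176). ska3, of a kinetochore complex, fell by 0.67 on the log2 scale (adjusted p = 0.0352). In these genes no knockout pool reached a control pool, but they were named because they passed, so this adds no support. hmmr did not pass without control pool 3 (0.0628), nor cdc25b without control pool 2 (0.0684), and ska3 passed in 7 of 13 alternative fits, losing its call without control pool 2 or 3 or knockout pool 2 or 3 (0.1003 to 0.173) and with upper-quartile scaling (0.0595).

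Of 35 tested genes of G1 control and cell cycle transcription, 4 fell and 0 rose with edgeR, as with DESeq2 (4 and 0). With limma-voom 3 fell and 0 rose, and at an unadjusted p under 0.05 8 were lower and 0 higher. Of all genes tested 2.54% fell and 1.47% rose with edgeR. The shares lower were 3.28% with DESeq2, 2.40% with limma-voom and 8.81% at an unadjusted p under 0.05. The median of the list was −0.14, and −0.04 without control pool 2. The number that passed as lower was 0 without control pool 2 or control pool 3, against 1.66% and 1.65% of all genes. It was 2 without knockout pool 1 or knockout pool 3, against 2.24% and 1.89%, and 1 without knockout pool 2, against 1.81%. Of the 35 genes 25 had a negative and 10 a positive log2 fold change, against 50.9% negative over all genes. The 4 genes that fell with edgeR code for transcription factors, as do many genes of this list by its making. They were foxm1, mybl2, e2f2 and e2f8, and no other E2F gene of the list passed. foxm1, the activator of the G2 and mitosis genes, stood at 11.7, 13.4 and 12.1 CPM in the controls and at 7.93, 8.62 and 7.67 CPM in the knockouts. Its control pools were close together, with an SD of 0.10 on the log2 scale against a median of 0.33 over members, and all were above the knockout pools. The log2 fold change was −0.62 (SE 0.12, edgeR adjusted p = 0.0166).

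mybl2, the gene of B-MYB, which works with foxm1 in G2, stood at 15.4, 22.4 and 16.8 CPM in the controls and at 12.03, 12.3 and 10.5 CPM in the knockouts (log2 fold change −0.65, SE 0.15, edgeR adjusted p = 0.0425). e2f2 stood at 7.16, 10.3 and 10.4 CPM in the controls and at 4.93, 5.12 and 5.36 CPM in the knockouts (log2 fold change −0.85, SE 0.17, adjusted p = 0.0162). e2f8, an atypical E2F that represses S phase genes, stood at 12.8, 19.4 and 15.9 CPM in the controls and at 7.73, 9.56 and 9.98 CPM in the knockouts (log2 fold change −0.82, SE 0.17, adjusted p = 0.0204). The groups did not overlap in any of the 4, but these were named because they passed, so this adds no support. Over the 35 genes of the list, all knockout pools were below all control pools in 8, against 10.6% of all genes tested. They were above all control pools in 1, against 2327 of 21602 genes. None of the 4 passed without control pool 2 or without control pool 3, where edgeR adjusted p ran from 0.0625 to 0.168. foxm1 and e2f2 each passed in 10 of 13 alternative fits, e2f8 in 9 and mybl2 in 6. ccnd1, the gene of cyclin D1, which starts the cycle in response to growth signals, was at 183, 198 and 188 CPM in the controls and 188, 162 and 167 CPM in the knockouts. Its log2 difference was −0.14 (adjusted p = 0.570).

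Among 14 tested genes of cell cycle inhibitors 1 rose and 0 fell with edgeR, against 1.47% and 2.54% of all genes. DESeq2 and limma-voom likewise gave 1 higher and 0 lower, against 1.87% and 1.37% higher over all genes. At an unadjusted p under 0.05 1 was lower, against 8.81% of all genes. The gene that rose was the gadd45a gene ENSDARG00000043581, of a stress-induced growth arrest protein, from 5.18, 7.86 and 6.25 CPM in the controls to 10.9, 10.2 and 9.51 CPM in the knockouts. Its log2 fold change was 0.67 (SE 0.16, edgeR adjusted p = 0.0471), and it passed in 7 of 13 alternative fits. Of the fits with 1 pool left out it passed in that without control pool 2, and not in the other 5 (0.0665 to 0.163). A further gadd45a gene, ENSDARG00000104571, was at 0.00. cdkn1a, which codes for the CDK inhibitor p21, stood at 20.1, 19.2 and 41.3 CPM in the controls and at 24.4, 15.7 and 34.7 CPM in the knockouts. Its log2 difference of −0.11 had a 95% interval from −0.81 to 0.59 (adjusted p = 0.907), and pool 3 of either genotype was the highest of its group.

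Markers of tissues that hold dividing cells, and of liver and gut, were read beside these genes. Of all genes tested 2.54% passed as lower and 1.47% as higher. Of 14 tested neural progenitor markers 4 fell (sox19a, ascl1b, hes6 ENSDARG00000019335 and dlb, with log2 fold changes of −0.44, −0.86, −0.59 and −0.61) and nes rose (2.08), with a median of −0.23 and a summed level of 412 to 475 CPM in the controls and 467 to 522 CPM in the knockouts. The number of these that passed as lower was 0 when control pool 2, control pool 3 or knockout pool 2 was dropped. It was 1 when knockout pool 3 was dropped, 1 after upper-quartile scaling and 2 when knockout pool 1 was dropped, while nes passed in all 13 alternative fits. In these fits with 1 pool dropped 1.65% to 2.24% of all genes passed as lower, and after upper-quartile scaling 476 of 21602 genes did. Of 9 retinal margin markers 1 fell and 0 rose, with a median of −0.21 and sums of 288 to 315 CPM and 262 to 270 CPM. The 1 that fell was the same hes6 gene as in the neural list. Of 8 hematopoietic progenitor markers 1, klf1, fell (−1.18) and 0 rose, with a median of −0.13 and sums of 80.3 to 88.6 CPM and 62.6 to 71.9 CPM. hes6 did not pass without control pool 2 (edgeR adjusted p = 0.0670), control pool 3 (0.0505) or knockout pool 2 (0.0620), nor klf1 without control pool 3 (0.0610) or knockout pool 2 (0.0521). The groups did not overlap in the summed levels of the retinal and hematopoietic lists, and overlapped in that of the neural list. The neural sum includes nes, which rose, while 11 of the 14 neural markers were negative, against 50.9% of all genes. That sum therefore cannot be read as the direction of most neural markers. The retinal list includes ccnd1, which makes up most of its sum in every pool. The separation of that sum therefore cannot be read as one of the other retinal markers.

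Hepatocyte and gut markers differed by more. Of 16 hepatocyte markers 13 fell, against 2.54% of all genes, with a median of −1.21. Their summed level was 11137 to 13365 CPM in the controls and 4235 to 6371 CPM in the knockouts. The hepatocyte genes that fell included shbg, gc, ttr, tfa, fabp10a and fga, which code for secreted or lipid-binding liver proteins, with log2 fold changes of −5.0, −4.37, −4.34, −2.94, −2.41 and −1.32. Of 8 intestinal epithelium markers 5 fell, against 2.54% of all genes, with a median of −0.84 and sums of 2055 to 2962 CPM and 905 to 1283 CPM. These 5 were chia.2, tm4sf4, vil1, fabp2 and apoa4a, with log2 fold changes of −1.64, −1.09, −1.01, −0.96 and −0.72. The number that passed was 3 when control pool 2 or either of knockout pools 2 and 3 was dropped, and 4 when any one of the other pools was. In these fits 1.65% to 2.91% of all genes passed as lower. No matched marker of these 5 lists was at 0 in all pools. Some listed markers matched no gene symbol and were not read. These were 7 of 20 neural, 6 of 14 retinal, 3 of 11 hematopoietic, 0 of 16 hepatocyte and 2 of 10 intestinal markers. Among the control pools the mean level (log2 CPM from the control mean) ran from −0.34 to 0.32 for the cell cycle members, from −0.0092 to 0.014 for hepatocyte and from −0.11 to 0.18 for intestinal markers. The median level of the hepatocyte markers was −0.15, 0.10 and 0.02 in the controls, and their sum was 11137, 13365 and 12644 CPM. The narrow range of their mean level therefore cannot be read as equal liver content in the control pools. The part of these tissues in the cell cycle result was not tested.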

How the data were processed

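Per the labels, poly(A)-selected, non-stranded libraries were sequenced with paired reads for pools of 5 genotyped larvae, 3 pools per genotype, and the pooling was repeated over mating sets. The deposited values are estimated counts per Ensembl gene, which the authors stored as whole numbers, so rounding changed nothing. The submitters' processing notes name Salmon, Trim Galore, FastQC and DESeq2 and the build GRCz11. Their versions and roles are not given in the sources used here.

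Gene symbols were taken from an Ensembl ID table, which named 23598 of 25859 genes. It writes many in capitals, and they are printed here in lower case. The filterByExpr function left 21602 genes. Scaling was by TMM, and the quasi-likelihood test of edgeR 4.0.16 (R 4.3.3), with no term but genotype, was adjusted by Benjamini-Hochberg at 0.05. Each SE is the size of the log2 fold change divided by the root of F. Logged CPM have 2 as prior count. Fits were tested on simulated data. Within a group, pools varied beyond sampling noise, with 7.22 to 20.6 as chi-square per degree of freedom. Reads of similar copies may be shared. Reads of genes that overlap on opposite strands may be mixed too, as the libraries carry no strand.

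Members, lists and tests were chosen with earlier results of these data known. All members are accounted for, and of the lists up to 6 genes past the threshold by smallest p were named, plus cdkn1a and hspd1. The genes prc1, birc5, ccnd1, slbp and the further gadd45a gene were chosen after their values were seen. Alternatives were RLE and upper-quartile scaling, no filter on low counts, at least 1 CPM in 3 pools, DESeq2 1.42.0, limma-voom (limma 3.58.1), the replicate number as a block and each pool left out. Sequences and genome positions are not used here.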

Additional observations from a re-analysis of the deposited data

How the results depend on the processing

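The number of members lower, 3 with edgeR, was 12 with DESeq2 and 5 with the replicate block, and 1 to 17 with 1 pool left out. For mitosis members, 3 with edgeR, it was 10 with DESeq2, 5 with the replicate block and 1 to 14 with 1 pool left out. For replication members, 0 with edgeR, it was 1 with DESeq2 and 0 to 2 with 1 pool left out. The number of all genes called, 866, ran from 549 to 981 with 1 pool left out, and was 738 with the replicate block. With the block 487 of the 21602 genes tested passed as lower. Same-numbered pools did not deviate together (correlations −0.20, 0.10 and −0.07 for pools 1, 2 and 3), so the numbers were taken as names and the pairing as not shown. Between pools of unequal number the correlations ran from −0.17 to 0.22. The highest were 0.22 for control pool 1 with knockout pool 3 and 0.17 for control pool 3 with knockout pool 1. A pairing by mating set under unequal numbers was not tested. With the block cenpe and smc4 also passed (edgeR adjusted p = 0.0352 and 0.0167), and 1 of the neural progenitor markers passed as lower, while ska3 (0.0835) and gadd45a (0.0746) did not pass. The median log2 fold change stayed negative in all 13 alternatives, from −0.43 to −0.12 for replication and from −0.65 to −0.34 for mitosis members. Upper-quartile scaling moved the median of all genes to 0.04.

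Signs turned for 11 of 546 values of members, with none passing a test. With 1 pool left out, log2 differences ran from −0.44 to 0.0025 for pcna, from −0.31 to 0.27 and from −0.34 to 0.19 for the rrm2 genes, from −0.29 to 0.15 for tyms, from −0.14 to 0.076 for ccna2 and from −0.34 to 0.069 for aurkb, each highest without control pool 2. They ran from −0.15 to 0.031 for bub1bb, highest without knockout pool 3, and from −0.41 to 0.35 for cdkn1a, highest without control pool 3. Upper-quartile scaling gave 0.021 for ccna2. The causes were not tested. Tested members had 40 reads or more in every pool, and 3 pools per group limit the precision.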
